A study of Mus musculus with 6 samples.

Results

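The cytosolic ribosomal protein genes, which encode the protein components of the large (Rpl) and small (Rps) subunits of the cytoplasmic ribosome, were described in γδ T cells before and after culture. Members were chosen by gene symbol alone: Rpl or Rps with an optional p, a number and at most an a, l, x or y and a further digit, which leaves out pseudogenes with a -ps suffix and the S6 kinases. The pattern found 86 of the 26771 genes listed, 51 of the large and 35 of the small subunit, and 84 of the 86 were listed in all 6 libraries. GENCODE annotates 81 of them as protein coding and 5 as processed pseudogenes (Rpl6l, Rps12l1, Rps3a2, Rps3a3 and Rps4l), which are copies of a ribosomal protein messenger RNA inserted back into the genome.

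All 6 messenger RNA libraries came from γδ T cells of the spleen of C57BL/6 mice with a TCRβ-/- genotype, which lack the αβ T cell receptor, and the labels give mice A, B and C once in each group. The 3 Initial libraries are cells sorted from splenocytes before culture. The 3 Induced libraries are cells cultured from splenocytes with IL-1β and IL-23, harvested on day 8 and purified with a Pan T cell kit, a procedure the labels use to obtain IL-17A-producing γδ T cells (γδT17). The titles call the cells of both groups γδT17 cells. Culture, cytokines, time and purification differ together between the groups and cannot be told apart. The sources used here do not give the age of the mice or the gate used for the Initial cells, and no uncultured cells were purified the same way as the Induced cells.

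Every ribosome carries about the same set of these proteins, most of them in equal number. Their genes are thus among the most strongly transcribed in a growing cell and tend to be made in proportion. Their messenger RNAs begin with a C followed by a run of pyrimidines, the terminal oligopyrimidine tract, through which LARP1 and the mTOR kinase control their translation. A few members have a paralog that can take the place of the usual protein in the ribosome, and T cells that start to divide enlarge their ribosome supply.

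Values are FPKM, fragments per kilobase of transcript scaled to library size, so each is relative to the rest of its own library. The tables list between 20419 and 21844 genes per Initial library and between 16550 and 17033 per Induced library, at a depth roughly estimated from the low values (19100000 to 22600000 fragments). The 5 T cell genes Cd3d, Cd3e, Cd3g, Cd247 and Trdc summed to between 1560 and 1696 FPKM in Initial and between 1378 and 1502 in Induced libraries, with none at 0. Other cell types were also present before culture: 10 macrophage markers summed to between 574 and 1109 FPKM in Initial and between 4.24 and 6.08 in Induced libraries, with at most 1 at 0 in a library, and 10 red cell markers to between 1222 and 1748 and between 1.19 and 1.64, with 4 or 5 at 0 in each Induced library. The 10 B cell markers summed to between 238 and 280 FPKM before and between 98.4 and 159 after culture, while 10 neutrophil markers did not exceed 19.6 and 7 platelet markers 6.09 in any library. The macrophage, red cell, B cell and platelet sums moved with the group, although of 9 tested B cell markers 8 fell and 1 rose. The neutrophil sums overlapped, at 1.20 to 19.6 FPKM in Initial and 1.08 to 5.13 in Induced libraries. The part of these markers in the ribosomal protein values was not tested. In bulk RNA, fewer cells of a type and less RNA per cell cannot be told apart.

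Most ribosomal protein genes were slightly lower after culture in FPKM, and 3 paralogs rose. With the libraries scaled to 20 T cell genes, the direction flipped and 66 members rose, among them the same 3 paralogs. Those 20 genes were chosen after the data were seen, and their own sum fell in FPKM. Under that scaling 8285 of all 11265 genes tested rose. The members' median log2 difference of 0.535 still lay below the 0.793 of all genes. In FPKM these medians were -0.297 and 0.028. Of 82 tested members, 71 had a negative difference in FPKM, Induced minus Initial. With the deposited FPKM, 29 members fell, 3 rose and 50 did not pass, at an adjusted p under 0.05 in limma with Benjamini-Hochberg adjustment over all 11265 genes tested. That is 39.0% of the members called, against 70.4% of all genes. The share that fell, 35.4%, lies near the 33.1% of all genes that were called lower, so in this fit the number of falls does not set the members apart. With the mouse as a block, which compares each mouse with itself, 57 members fell, 69.5% against 33.3% of all genes in that fit, and the same 3 rose. The 3 rises are 3.66% of the members, against 37.3% of all genes called higher. Changes were also small: 3 members were called with at least a 2-fold change, Rps27, Rps27l and Rps4l, where 25.2% of all genes were.

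The median log2 difference was -0.31 over the 49 large subunit genes tested and -0.28 over the 33 of the small subunit, against 0.03 over all genes, and under the scaling to 20 T cell genes these medians turned to 0.53 and 0.56 (that scaling raised the median of all genes to 0.79). In the large subunit 19 genes fell, 1 rose and 29 did not pass, and in the small subunit 10 fell, 2 rose and 21 did not pass. The falls are 38.8% and 30.3% of the tested genes, around the 33.1% of all genes called lower. The rises are 2.04% and 6.06%, against 37.3% of all genes called higher. The quartiles of the large subunit genes were -0.50 and -0.21, and those of the small subunit -0.41 and -0.08, so the spread within each subunit was wider than the gap between them. Scaling to the 5 T cell genes above raised the median of all genes from 0.03 to 0.18 and the share of calls that were higher from 52.9 to 63.8%. It left 8 members that fell and 5 that rose, where 2833 of all 11265 genes fell and 4991 rose.

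**Figure D1:**
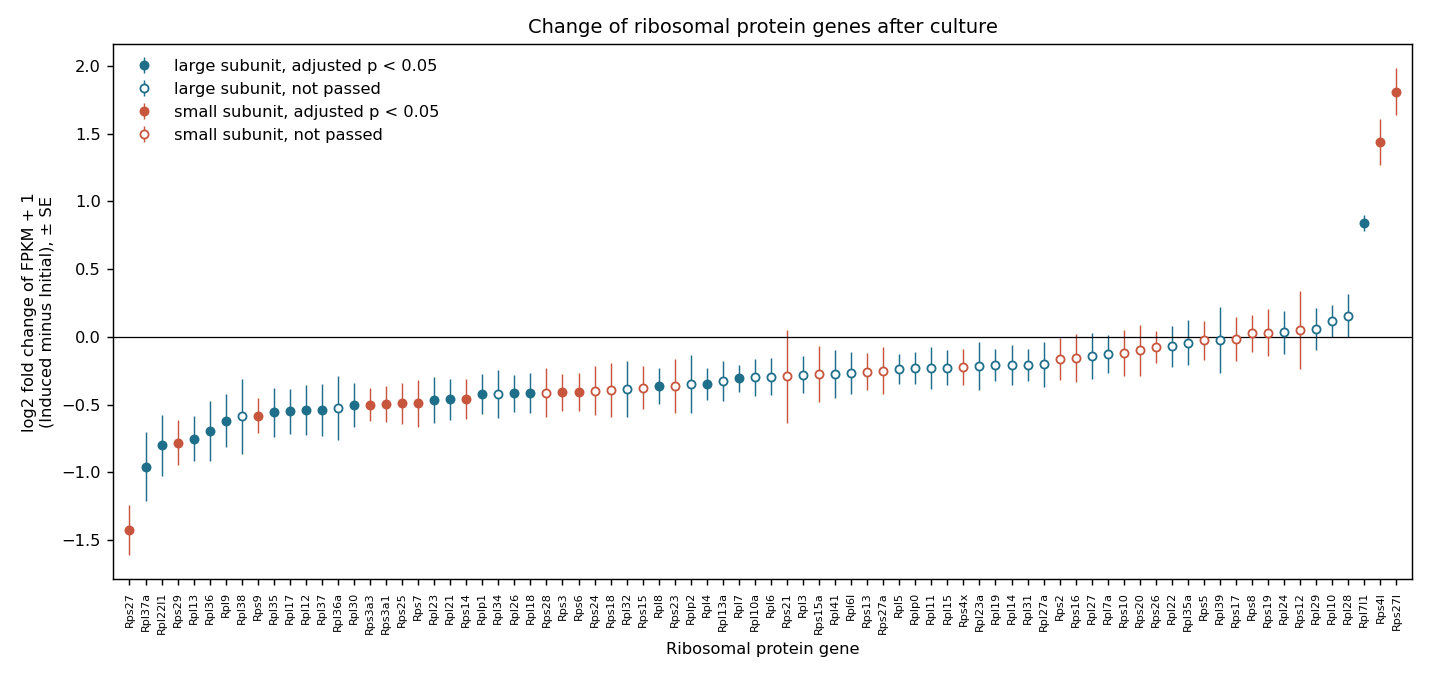
Log2 fold change of FPKM + 1 (Induced minus Initial, vertical axis, bars are ± SE from limma, 3 libraries per group) for 80 of the 82 tested ribosomal protein genes, ordered along the horizontal axis, blue for the large and red for the small subunit, filled where the adjusted p was under 0.05. Most points lie between 0 and -0.8, Rps27 stands lowest at -1.43, and Rpl7l1, Rps4l and Rps27l stand above the rest at 0.84, 1.44 and 1.81. With libraries scaled to 20 T cell genes most members instead lie above 0, as do most of all genes tested.

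Members of 1 library moved together. Initial C had the highest value of its group for 80 of the 86 members (93.0%) and Induced C for 81 (94.2%), where over all tested genes these libraries were highest for 39.3% and 45.3%. Initial B was lowest of its group for 75 members and Induced B for 63. The libraries of mouse C were thus high and those of mouse B low in both groups, in both subunits. The cause was not tested.

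The count of falls was 57 in place of 29 with the mouse as a block. Within mice, 62 of the 82 tested members were lower after culture in all 3, where 39.8% of all genes were. Without the block, 18 members had groups that did not overlap with Induced lower (35.4% of all genes did) and 3 with Induced higher (40.0% of all genes).

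The count of falls also depended on single libraries. It was 16 of 82 tested members without Initial A and 10 of 81 without Initial C. It was 9 of 82 without Induced A and 9 of 81 without Induced B. Over all genes, 2838 of 10526, 2751 of 10511, 3286 of 10879 and 3351 of 10873 fell in those fits in turn. With mouse C left out of both groups the count was 47 of 81, against 2988 of 9999 genes. The 3 rises were called in each of these fits. Rpl13, Rpl37a, Rps27, Rps29, Rps3a1 and Rps9 were among the members that fell in each of these fits and under each alternative pseudocount, filter and scaling tried but that to 20 T cell genes, under which Rps27 was the single member that fell.

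**Figure D2:**
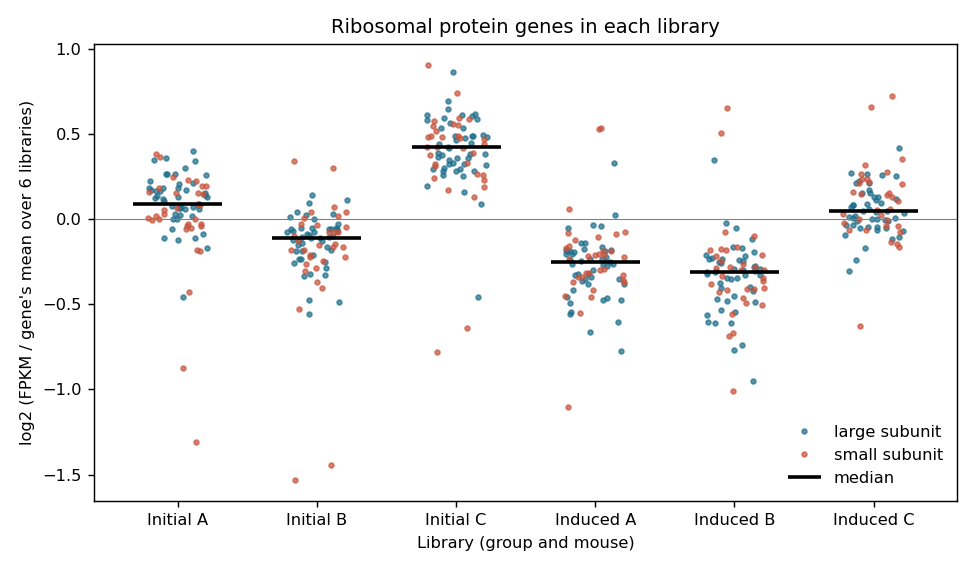
Log2 of each gene's FPKM over its mean in the 6 libraries (vertical axis) for 81 ribosomal protein genes with a mean FPKM of at least 1, by library (horizontal axis), 1 point per gene, blue for the large and red for the small subunit, with the median as a black line. The points of Initial C and Induced C lie above those of the other libraries of their group for 78 and 81 of the 81 genes drawn.

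Together the members made up 3.71, 3.25 and 4.32% of all FPKM in Initial A, B and C and 2.78, 2.67 and 3.38% in Induced A, B and C. The mean share was 3.76 ± 0.537% (SD, n = 3) before and 2.94 ± 0.382% (SD, n = 3) after culture, and the groups overlap, since Induced C lies above Initial B. Summed FPKM of the large subunit was 1.82, 1.75 and 1.71 times that of the small subunit in Initial A, B and C, and 1.69, 1.70 and 1.66 times in Induced A, B and C. This ratio was lower after culture in each mouse and its groups did not overlap, with means of 1.76 ± 0.0522 and 1.68 ± 0.0206 (SD, n = 3). The change of the mean was small, at -4.3%, and no test was made over these sums.

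Rps27, which had the largest fall, and its paralog Rps27l, which had the largest rise, changed in opposite directions. Both code for versions of a zinc-binding protein of the small subunit, and Rps27l is also known as a target of p53. Rps27 had 209, 200.1 and 305 FPKM in Initial A, B and C and 75.7, 80.7 and 105 in Induced A, B and C. Every Induced library lay below every Initial one, and the log2 difference was -1.43 (SE 0.19, adjusted p = 0.000307, limma), from 238 ± 57.9 to 87.3 ± 15.9 FPKM (SD, n = 3).

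Rps27l went the other way, from 29.2, 25.01 and 42.1 FPKM in Initial A, B and C to 104, 114 and 119 in Induced A, B and C. It rose by 1.81 on the log2 scale (SE 0.17, adjusted p = 5.61e-05, limma), from 32.1 ± 8.93 to 113 ± 7.58 FPKM (SD, n = 3). Rps27l thus lay below Rps27 in each Initial library and above it in each Induced library. Its share of the pair went from 11.8 ± 0.630% to 56.5 ± 2.96% (SD, n = 3), while the pair's sum went from 270.0 ± 66.7 to 199.8 ± 22.8 FPKM. Rps27 (ENSMUSG00000090733, chromosome 3, 90212522 to 90213651, minus strand, GRCm38) and Rps27l (ENSMUSG00000036781, chromosome 9, 66946086 to 66949516, plus strand) each have 4 exons and 252 coding bases. Their transcripts share no run longer than 11 bases, so reads of one are not readily placed on the other. Rps27 does share a run of 341 of its 345 bases with the retrocopy Rps27rt, and the authors' counting could have split reads between these copies. Rps27rt was listed at 4.25 ± 1.67 FPKM before and 1.34 ± 0.5005 after culture (SD, n = 3).

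The starts of both genes are shown with those of other members named here. The tract through which translation of this family is controlled begins with a C at the first base of the messenger RNA. A run of C and T near an annotated start need not be that tract. Each line is 30 bases, 5′ to 3′ on the gene's strand, from RefSeq on GRCm38.p6, within 50 bases either side of an annotated start. Capitals mark the longest run of C and T there, and in Rps27l only the first of its equally long runs is marked.
Rps27 (chr3:90213632-90213661, minus strand): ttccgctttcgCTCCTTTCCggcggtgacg
Rps27l (chr9:66946053-66946082, plus strand): ccccgcctccaCTCCTCTCCactcctcccc
Rpl13 (chr8:123102324-123102353, plus strand): cgtgacgtcaCTTCCCTTTCgcctgatttt
Rpl37a (chr1:72711274-72711303, plus strand): cgcattgcgTCCCTTCCTCTTCggacttgg
Rps9 (chr7:3704024-3704053, plus strand): caaccgccttgTCTCTCTTTgtctcgggcc
Rpl22 (chr4:152325679-152325708, plus strand): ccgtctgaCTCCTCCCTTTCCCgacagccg
Rpl22l1 (chr3:28805499-28805528, plus strand): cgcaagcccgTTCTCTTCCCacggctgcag
Rps4x (chrX:102189342-102189371, minus strand): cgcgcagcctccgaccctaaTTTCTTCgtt
Rpl7l1 (chr17:46782671-46782700, minus strand): cgtcgaggcgggCCTCTCTaccccgcccgg

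In these windows, Rps27 and Rps27l both hold a marked run of 9 letters, overlapping the annotated start in Rps27 and beginning 22 bases before it in Rps27l. In Rps27l an unmarked run of the same length follows, separated by an A and nearer the start. The longest runs of Rps4x and of Rpl7l1 have 7 letters. Relative to the start, the marked run begins at -16 in Rpl13, -6 in Rps9, -39 in Rpl22 and -32 in Rpl7l1. In Rpl22l1, Rpl37a and Rps4x it begins at 2, 24 and 41. The marked runs of Rpl37a, Rps9, Rpl22l1 and Rps4x are led by a T. A run of at least 8 letters, all C or T and led by a C, was found on the gene's strand within 50 bases either side of a start in 52 of the 61 members matched to a RefSeq window (85.2%), against 8645 of 27025 genes in all and 31.8% of the tested genes with a window. On the other strand 21.3% of members and 34.4% of all genes held one. The run was present in 34 of 38 large and 18 of 23 small subunit genes, in 15 of 18 that fell, in 34 of 39 that did not pass and in 1 of 2 that rose. Its presence thus did not separate members by how they changed. Of the mitochondrial ribosomal protein genes, 31.9% held it. The length and window were settled after several forms had been looked at, and a match is a description of letters and not of a used start.

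Rps4l, a single-exon copy of Rps4x annotated as a transcribed processed pseudogene (ENSMUSG00000063171, chromosome 6, 148354656 to 148355598, plus strand, GRCm38), had 8.57, 5.77 and 10.1 FPKM in Initial A, B and C and 22.7, 22.3 and 24.8 in Induced A, B and C. The groups did not overlap, and Rps4l rose by 1.44 on the log2 scale (SE 0.17, adjusted p = 0.000148, limma). Rps4x, the usual X-linked gene, had 244, 200.4 and 264 FPKM before and 186, 185 and 236 after culture, with overlapping groups and a log2 difference of -0.22 (adjusted p = 0.161, or 0.0367 with the mouse as a block, limma). The share of Rps4l in the pair went from 3.29 ± 0.447% to 10.4 ± 0.745% (SD, n = 3). The longest run the transcripts share has 38 bases. Rps4l lies opposite Tmtc1, which did not exceed 0.163 FPKM in any library. The label of pseudogene is the annotation's, and whether Rps4l is translated was not measured.

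Rpl7l1 (ENSMUSG00000063888, chromosome 17, 46773907 to 46782672, minus strand, GRCm38) was the single large subunit gene that rose. It had 37.8, 35.3 and 37.8 FPKM in Initial A, B and C and 65.3, 66.2 and 69.5 in Induced A, B and C, a log2 difference of 0.84 (SE 0.06, adjusted p = 9.58e-06, limma). The values within each group were close to each other, and Initial C was not the highest of its group in this gene. Rpl7, the usual paralog, had 403, 350.3 and 434 FPKM before and 319, 292 and 346 after culture, and fell by 0.31 on the log2 scale (adjusted p = 0.0238, limma). The share of Rpl7l1 in the summed FPKM of the pair went from 8.58 ± 0.567% to 17.4 ± 0.9497% (SD, n = 3). Whether its protein takes the place of Rpl7 in the ribosome was not measured.

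Rpl22 and Rpl22l1 showed the reverse of that order. Rpl22 is needed for the development of αβ T cells and much less for that of γδ T cells, and Rpl22l1 can replace it in the ribosome. Rpl22l1 had 55.3, 50.8 and 68.9 FPKM in Initial A, B and C and 32.8, 23.8 and 44.9 in Induced A, B and C, so that the paralog lay above the usual gene in every library. It fell by 0.80 on the log2 scale (SE 0.23, adjusted p = 0.0162, limma), and without Initial C the adjusted p was 0.0612. Rpl22 had 24.1, 24.2 and 31.6 FPKM before and 22.9, 22.2 and 31.0 after culture, a log2 difference of -0.07 (adjusted p = 0.688, limma). The share of Rpl22l1 was 68.6 ± 0.947% before and 56.6 ± 4.19% after culture (SD, n = 3).

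The other pairs moved less or lay near 0. Rpl36al, an intronless copy of Rpl36a whose name falls outside the symbol pattern, had 103, 93.7 and 139 FPKM before and 124, 119 and 152 after culture, higher in each mouse with overlapping groups. Its log2 difference of 0.25 had an adjusted p of 0.189, or 0.0164 with the mouse as a block and 0.0178 without Initial C (limma). Rpl36a had 34.7, 23.9 and 38.2 FPKM before and 17.2, 19.9 and 29.6 after culture, with an adjusted p of 0.0824, or 0.0212 with the block. The copy therefore made up most of the pair in both groups, 77.6 ± 2.51% before and 85.8 ± 2.04% after culture (SD, n = 3).

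Rpl39l, a paralog of Rpl39 best known from testis, lay under the filter and was not tested. It had 0.535, 0.287 and 0.0663 FPKM in Initial A, B and C and 2.90, 1.02 and 0.791 in Induced A, B and C, so the groups did not overlap. Rpl39 had between 15.0 and 29.2 FPKM before and between 18.0 and 25.2 after culture. Rpl3l, a paralog of Rpl3 known from heart and skeletal muscle, was listed at 0.0504 and 0.0585 FPKM in Initial A and B and missing elsewhere, and Rpl10l was in no library. Rpl10, which joins the large subunit late in its assembly, had 380.3, 351 and 462 FPKM before and 402, 407 and 479 after culture, with a log2 difference of 0.12 (adjusted p = 0.398, limma). Scaled to the 5 T cell genes, Rpl10 rose by 0.28 (adjusted p = 0.0455, limma).

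**Figure D3:**
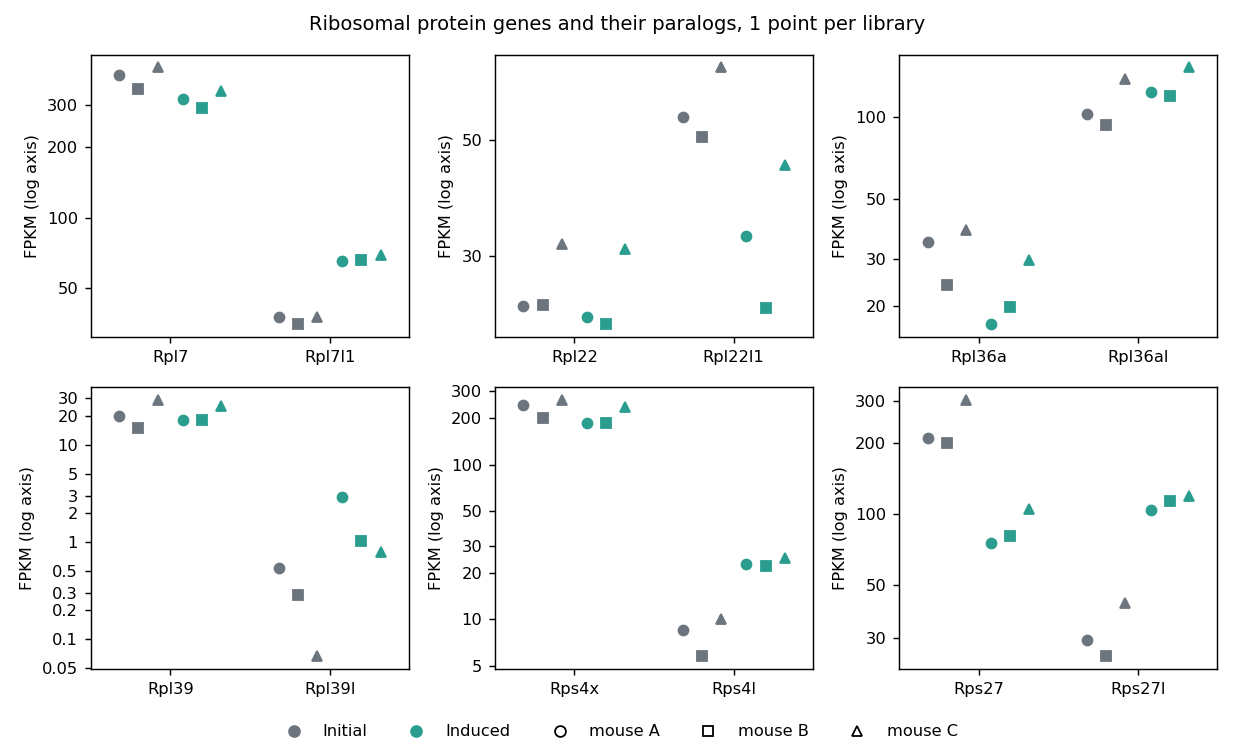
FPKM on a log axis of 6 ribosomal protein genes (left in each panel) and their paralogs (right), 1 point per library, grey for Initial and green for Induced, with shapes for mice A, B and C. Rps27 and Rps27l change places between the groups, Rpl7l1 and Rps4l rise while staying below Rpl7 and Rps4x, and Rpl22l1 lies above Rpl22 in both groups.

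Rpl13, Rplp0, Rpl4 and Rpl3 were among the most abundant large subunit genes per length. Rpl13 had 1145, 899 and 1320.2 FPKM in Initial A, B and C and 610.5, 588 and 792 in Induced A, B and C. No Induced library reached the lowest Initial one, and Rpl13 fell by 0.75 on the log2 scale (SE 0.16, adjusted p = 0.00431, limma). Rpl13 overlaps the gene model Gm20388 on the same strand, so reads of these could be assigned to either. Rpl4 had 794, 654 and 833 FPKM before and 564, 549.5 and 677 after culture, with overlapping groups, and fell by 0.35 on the log2 scale (adjusted p = 0.0282, limma). Rpl3, which lines the peptidyl transferase centre, had 562, 494 and 631 FPKM before and 435, 404 and 556 after culture (log2 difference -0.28, adjusted p = 0.0998, or 0.00954 with the mouse as a block, limma).

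The stalk proteins Rplp0, Rplp1 and Rplp2 form the arm of the large subunit that recruits elongation factors. Rplp0, which anchors the arm, had 758, 660.1 and 828 FPKM before and 595, 585 and 735 after culture (log2 difference -0.23, adjusted p = 0.109, limma). Rplp1 had 133, 108 and 165 FPKM before and 97.0, 92.2 and 109 after culture, and fell by 0.42 on the log2 scale (adjusted p = 0.0346, limma). The groups of all 3 stalk genes overlapped. Rplp2 had 75.6, 51.9 and 94.9 FPKM before and 52.1, 52.1 and 65.8 after culture (log2 difference -0.35, adjusted p = 0.184, limma). With the mouse as a block, Rplp0 and Rplp2 passed at adjusted p = 0.0232 and 0.0376 (limma).

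Among the largest falls of the large subunit were also Rpl37a, a small zinc-binding protein, and Rpl36. Rpl37a had 94.8, 69.6 and 136 FPKM in Initial A, B and C and 43.8, 44.9 and 60.6 in Induced A, B and C, without overlap, and fell by 0.96 on the log2 scale (SE 0.25, adjusted p = 0.0128, limma). Rpl36 had 71.6, 59.6 and 100.3 FPKM before and 40.7, 40.7 and 59.2 after culture, and fell by 0.70 on the log2 scale (SE 0.22, adjusted p = 0.0258, limma). The lowest Initial and the highest Induced library of Rpl36 all but met, at 59.6 and 59.2 FPKM. Rpl36, Rpl4, Rpl7, Rplp1 and Rps6 lost their call, with adjusted p between 0.0511 and 0.1, when Initial A, Initial C, Induced A or Induced B was left out.

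In the small subunit the most abundant genes per length were Rps6, Rps3a1, Rps2, Rps18 and Rps9. Rps6, the substrate of the S6 kinases downstream of mTOR, had 616, 544 and 743 FPKM before and 438, 437 and 557 after culture, and fell by 0.41 on the log2 scale (adjusted p = 0.0293, limma). Its groups overlapped through Initial B and Induced C. Rps3a1 had 552, 487 and 655 FPKM before and 376, 363 and 461 after culture, without overlap, and fell by 0.50 on the log2 scale (SE 0.13, adjusted p = 0.0101, limma). Rps9 had 341, 299 and 408 FPKM before and 213, 218 and 265 after culture, also without overlap, and fell by 0.58 on the log2 scale (SE 0.13, adjusted p = 0.00456, limma). Rps2, which lies at the entry of the messenger RNA channel, and Rps18, a protein of the head of the subunit, did not pass. Rps2 had 497, 395 and 524 FPKM before and 388, 365 and 518 after culture (log2 difference -0.16, adjusted p = 0.374, limma). Rps18 had 326, 291 and 428 FPKM before and 243, 217 and 341 after culture (log2 difference -0.39, adjusted p = 0.113, or 0.00144 with the mouse as a block, limma). Rps18, Rps4x, Rpl3, Rpl36a and Rplp0 passed as lower without Induced C, at adjusted p between 0.00963 and 0.0314, and Rps4x, Rpl36a, Rplp0 and Rplp2 without Initial B, at between 0.012 and 0.0496.

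Rps29, a zinc-binding protein of the small subunit, had 86.6, 68.4 and 97.9 FPKM before and 45.4, 41.3 and 59.4 after culture, without overlap. It fell by 0.78 on the log2 scale (SE 0.17, adjusted p = 0.00391, limma), the largest fall of the small subunit after Rps27. Rps3a3, annotated as a processed pseudogene, fell by 0.50 (SE 0.12, adjusted p = 0.00672, limma), from 14.6, 15.5 and 13.4 FPKM to 10.0, 8.33 and 11.7. It shares a run of 215 bases with Rps3a1 and lies inside Pde4d on the same strand, which itself went from 33.3 ± 3.61 to 4.45 ± 0.881 FPKM (SD, n = 3). Reads of these genes could have been split, so the value of Rps3a3 is uncertain. Rps3a2, which shares a run of 317 bases with Rps3a1, and Rps12l1 lay under the filter, at no more than 1.29 and 0.487 FPKM. The 119 listed ribosomal protein pseudogenes with a -ps suffix summed to between 0.704 and 0.813% of the members' FPKM per library.

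Some further members are named here after their values were seen, for their known role. Rps19, which is mutated in Diamond-Blackfan anaemia, had means of 247 ± 58.1 and 249 ± 31.6 FPKM (SD, n = 3; adjusted p = 0.88, limma). Rpl5 and Rpl11, which together bind and restrain Mdm2 when ribosome assembly fails, had log2 differences of -0.24 and -0.23 (adjusted p = 0.0918 and 0.221, or 0.0124 and 0.0317 with the mouse as a block, limma).

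Levels differed far more between members than between groups. Over the 79 tested coding members, mean FPKM ran from 16.97 to 892 in the large subunit, with a median of 121, and from 8.26 to 556 in the small subunit, with a median of 153. The level went with coding length, with Spearman's rho of 0.72 across these genes. The 26 shortest genes, with 75 to 396 coding bases, had a median of 57.3 FPKM, the 27 of middle length 115 and the 26 longest 277. All values come from the same 6 libraries, genes are not independent replicates, and the part of fragment length in the level of short transcripts was not tested.

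The difference between groups went little with length (rho 0.17) or level (rho -0.07). Its median was -0.42, -0.26 and -0.29 in the short, middle and long genes, where 10, 8 and 10 genes fell. Of these coding members together 35.4% fell, near the 33.1% of all genes called lower. With the libraries scaled to 20 T cell genes the members as a whole were higher instead, as given above.

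**Figure D4:**
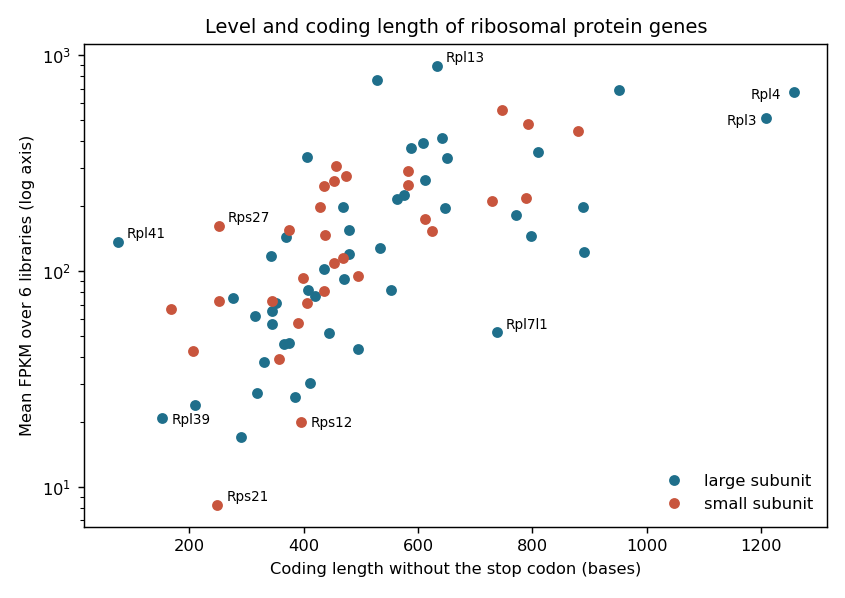
Mean FPKM over the 6 libraries (vertical log axis) against coding length without the stop codon in bases (horizontal axis) for the 79 tested coding ribosomal protein genes, blue for the large and red for the small subunit. Short genes lie lower, at a median of 57.3 FPKM for the 26 shortest against 277 for the 26 longest, with Rpl41 and Rps27 above and Rpl7l1 below genes of their length.

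In the genome the members lie on 19 chromosomes, 15 of them on chromosome 7 and 4 on X, 29 hold a small nucleolar RNA gene inside their borders, and 17 overlap a coding gene on the other strand. The sources used here do not say whether strand was used in counting, so reads of those 17 and of their partners cannot be told apart.

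Genes that work with the ribosome moved in several ways. Of 78 mitochondrial ribosomal protein genes, which build the separate ribosome of mitochondria, 50 rose, 3 fell and 25 did not pass, with a median log2 difference of 0.38, against -0.30 for the cytosolic members. These are 64.1% that rose and 3.85% that fell, against 37.3% and 33.1% of all genes. Mrps16 went from 15.5 ± 0.807 to 41.7 ± 5.89 FPKM and Mrpl18 from 51.3 ± 5.23 to 124.6 ± 4.94 (SD, n = 3), while Mrpl9 and Mrpl38 fell by 0.77 and 0.37 on the log2 scale. Of 5 cytosolic ribosomal proteins with other names, such as Rpsa and Rpl36al, none passed in limma, none at an unadjusted p under 0.05, and with the mouse as a block Rpsa fell and Rpl36al rose.

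Of 13 elongation and termination factor genes 4 rose (30.8%) and 5 fell (38.5%), near the 37.3% and 33.1% of all genes. Eef1e1, a scaffold of the aminoacyl-tRNA synthetase complex, and the release factor Gspt1 rose by 0.87 and 0.77, and Tpt1 and the release factor Etf1 fell by 0.46 and 0.40 on the log2 scale. Of 37 initiation factor genes 12 rose (32.4%) and 11 fell (29.7%), also near those shares. Eif1, which guards the choice of the start codon, fell from 701 ± 41.8 to 256 ± 7.67 FPKM (SD, n = 3), and the helicase gene Eif4a2 by 1.24 on the log2 scale. Eif2b1 and Eif3b rose by 0.61 and 0.54.

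Of 15 tested regulators of ribosomal protein translation 3 rose (20%) and 6 fell (40.0%), against 37.3% and 33.1% of all genes. Eif4ebp1, which holds back cap-dependent translation until mTOR phosphorylates it, rose from 4.99 ± 0.491 to 15.6 ± 1.03 FPKM, and its relative Eif4ebp2 fell from 20.4 ± 2.53 to 12.8 ± 1.73 (SD, n = 3). The mTOR partner Mlst8 rose by 0.51, and Maf1, a repressor of RNA polymerase III, fell by 0.85 on the log2 scale. Of 21 RNA polymerase I genes, which make ribosomal RNA, 2 rose (Cd3eap by 0.75 and Polr2f by 0.51) and 9 fell, which is 9.52% and 42.9%, among them Twistnb and Taf1d by 0.75 and 0.74. Of 55 ribosome assembly genes 11 rose (20%) and 14 fell (25.5%), so that 45.5% were called where 70.4% of all genes were. Dhx37 and Nhp2 rose by 1.17 and 0.86, and Tsr2, a chaperone of the small subunit protein Rps26, fell by 1.12 and Ltv1 by 0.61 on the log2 scale. Rps26 itself had 74.9 ± 10.9 FPKM before and 70.9 ± 7.93 after culture (SD, n = 3; adjusted p = 0.594, limma).

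**Figure D5:**
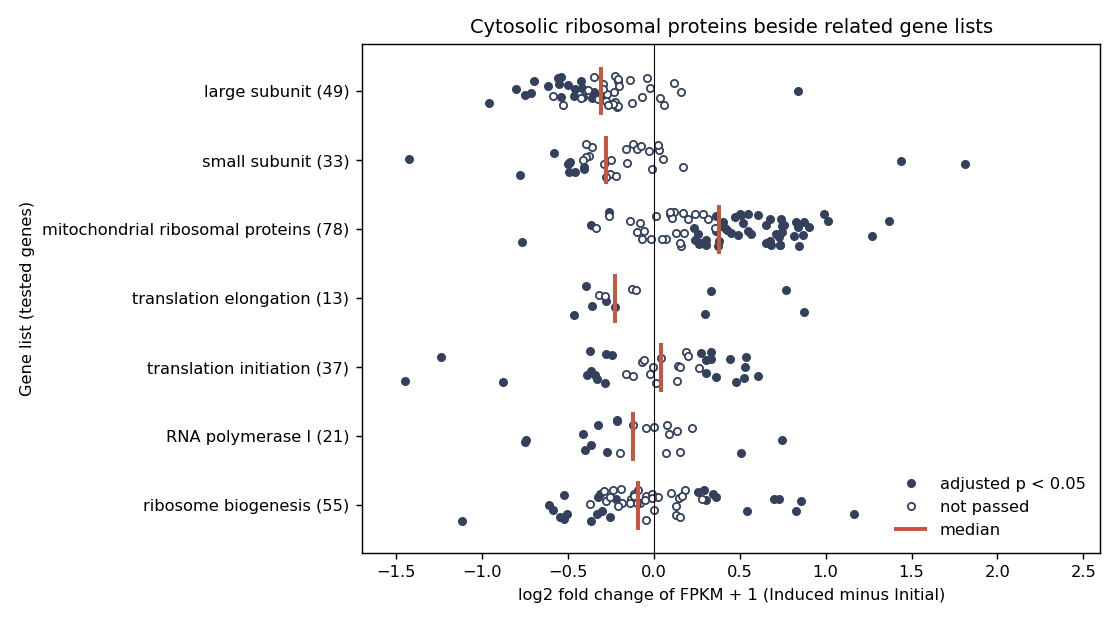
Log2 fold change of FPKM + 1 (Induced minus Initial, horizontal axis) of each tested gene in 7 lists (vertical axis, number of tested genes in brackets), filled where the adjusted p was under 0.05, with the list median as a red line. The medians of the cytosolic large and small subunits lie at -0.31 and -0.28 and that of the mitochondrial ribosomal proteins at 0.38. Scaling to 20 T cell genes, which is not drawn, would move the medians of the cytosolic subunits to 0.53 and 0.56. It also raised the median of all genes from 0.03 to 0.79, so the other lists would not stay where they are drawn.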

How the data were processed

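The authors deposited FPKM per gene, 1 table per library, from Cuffdiff on VAHTS mRNA-seq v2 libraries, per the labels' protocols. The submitters' processing notes name HISAT2 2.0.5, CASAVA, Cuffdiff 2.2.1 as well as 1.3.0, and build mm9, but the loci in the tables match GRCm38: all 86 members lie on the same chromosome and 78 inside the listed span, so positions come from GENCODE M21 on GRCm38. A gene with no row counted as 0, although its estimate may merely be missing, and 24 symbols turned into dates were restored by identifier.

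Tests used limma 3.58.1 (R 4.3.3) on log2(FPKM + 1) for genes reaching FPKM 1 in 3 or more libraries (trend and robust, two-sided, Benjamini-Hochberg over 11265 genes, threshold 0.05); fold changes on this scale understate the change of low genes. The script was tested on simulated data. The labels give the same 3 mice in both groups, which pairs the libraries by animal. Deviations from group means of members correlated at 0.26, 0.32 and 0.39 within mice A, B and C, and over all tested genes at 0.04, 0.03 and 0.13. Between different mice they correlated at -0.37 to 0.114 in members and at -0.132 to 0.099 over all tested genes. The block is an alternative. The p-values measure the spread between these 3 libraries per group.

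Depth was estimated from steps in low values and is rough, since 43.7 to 48.8% of them fell within 0.15 of a whole fragment where 30% would by chance; no counts were recovered. Named members are, per subunit, the 5 most abundant, the 5 largest rises and 5 largest falls among called genes, the stalk genes, 8 paralog pairs and members under the filter, and per related list the 2 largest called rises and falls; others are said to be chosen after their values were seen. A few genes taken by this rule or drawn per gene are not reported here. Members and lists were chosen with earlier results of these data known. RefSeq windows matched 61 members by symbol. Alternatives varied the pseudocount, filter, scaling, block, variance model and libraries. Tables were made with pandas 2.3.3, numpy 2.4.6 and scipy 1.17.1 in Python 3.11.15, and figures with matplotlib 3.10.9.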

Additional observations from a re-analysis of the deposited data

How the results depend on the processing

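The rises of Rps27l, Rps4l and Rpl7l1 were called under every alternative run. The count of 29 falls stayed within 1.5 times under other pseudocounts, a filter at FPKM 5 and TMM-like factors. The same held for a common sum, quantile normalization and an ordinary moderated test. It was 13 with no filter and 57 with the mouse as a replicate block, against 4793 of 26771 and 3750 of 11265 genes. Leaving out 1 library gave between 9 and 43 falls and 3 or 4 rises, and leaving out mouse C gave 47 falls. Over all genes, leaving out 1 library gave between 2751 and 3837 falls and between 3438 and 4080 rises. Leaving out mouse C gave 2988 falls over all genes. Scaling to the CD3 chains and Trdc gave 5 rises and 8 falls, against 4991 and 2833 of all 11265 genes. Scaling to 20 T cell genes, chosen after seeing the data, gave 66 rises and 1 fall, and the medians turned to 0.525 (Rpl) and 0.563 (Rps). With it 8285 of 11265 genes rose, 84.7% of all calls were higher, and the median of all genes was 0.793. These T cell genes themselves fell as a sum with the deposited scaling.

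Values that changed sign under that scaling were, on the log2 scale, Rpl13 0.10, Rpl22 0.75, Rpl22l1 0.032, Rpl3 0.57, Rpl36 0.14, Rpl36a 0.29, Rpl39 0.79, Rpl4 0.51, Rpl7 0.55, Rplp0 0.62, Rplp1 0.43, Rplp2 0.49, Rps18 0.46, Rps2 0.69, Rps29 0.059, Rps3a1 0.36, Rps3a3 0.29, Rps4x 0.63, Rps6 0.45 and Rps9 0.27. With the CD3 chains and Trdc, Rpl22 turned to 0.092, Rpl39 to 0.14 and Rps2 to 0.006. Rpl39 was 0.014 with TMM-like factors and 0.07 without mouse C. Leaving out 1 library gave Rpl22 between -0.219 (without Induced C) and 0.054 (without Initial C), and Rpl39 between -0.237 (without Initial B) and 0.223 (without Initial C). None of Rpl22, Rpl39 and Rps2 passed in the test reported. The cause of these changes beyond the scaling's own construction was not tested. Depth is known only roughly, so no counting error is given for genes near 0 such as Rpl39l.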
